A study of Mus musculus with 17 samples.

Results

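The genes described here are 40 genes of the cell cycle and of DNA replication, among 21887 protein-coding genes, followed by where RNA polymerase II stood on them in mouse bone marrow-derived macrophages. They were chosen by name: the cyclins and their kinases, the CDK inhibitors with Rb1 and E2f1, the licensing and replication factors, and the kinases, motors and checkpoint proteins of mitosis. Polymerase was located by sequencing immunoprecipitated chromatin of wild-type (WT) cells and of cells lacking N4bp1 (N4bp1 KO), a suppressor of inflammatory cytokine production. Each genotype was left without treatment or given R837 (imiquimod, which activates TLR7, a receptor for RNA in endosomes) for 2, 4 or 6 h, with 2 libraries in each of the 8 groups. All groups are cultured macrophages from bone marrow, immunoprecipitated with the same antibody. The labels give neither the strain, age or number of mice, nor the deleted part of N4bp1, nor whether replicates are separate cultures, so p-values here reflect the spread among the deposited libraries alone, and that spread may be technical.

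Cyclins bind and switch on the cyclin-dependent kinases (CDKs), and D cyclins with Cdk4 and Cdk6 phosphorylate RB, which frees E2F factors to drive the genes of S phase. Before S phase, Cdc6 and Cdt1 load the MCM helicase onto replication origins. Before mitosis, cyclin B with Cdk1, the Aurora and Polo kinases and the checkpoint proteins set the division in motion, and the anaphase-promoting complex ends it with the activators Cdc20 and Fzr1 (CDH1). Macrophages grown from bone marrow divide in culture under the growth factor CSF1, and Toll-like receptor ligands are known to slow their cycle.

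The data are lists of 1 bp polymerase summits, 1 list per library, with 8394 to 29760 summits each. A list holds no read counts, so the depth of the libraries is unknown and no counting error can be given. To make lists comparable, each was shortened to its 8394 best summits by the authors' score. The rank of a gene is the place of its best summit, within the gene and 1 kb on either side, in that shortened list, where rank 1 is the top summit. The rank score is log2((8394 + 1) / rank), or 0 for a gene with no summit, and can reach 13.04. It gives a place among summits, not a quantity of polymerase. Changes are differences in mean rank score with the standard error (SE) of limma's fit over all 16 libraries, and adjusted p is limma's with Benjamini-Hochberg correction covering the 8475 genes with a summit in at least 2 shortened lists.

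Some libraries stand apart. Replicate 2 of KO at 6 h reached a score of 563.5 and had at most 0.08% of score values in common with another list, while other pairs, also of different groups, shared up to 81.78%. Codes in the peak names put the untreated and 2 h libraries in 1 series and the 4 h and the 6 h libraries in 1 series each, so only the 2 h comparison with untreated cells lies within a series. For 4 and 6 h, the series and the treatment cannot be told apart. Of 12 macrophage markers, 8 to 9 held a summit in untreated lists and 9 to 10 in treated lists (summed rank score 32.42 to 37.01 and 35.75 to 58.29), and Mrc1 was at 0. No B cell, mast cell or erythroid marker held a summit in any list, and at most 2 markers in any list did so for T and NK cells, neutrophils, dendritic cells or fibroblasts; of these, the dendritic cell marker Xcr1 held one in all 16. In cells taken as a whole culture, fewer dividing cells and less polymerase per cell cannot be told apart.

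The promoters that follow belong to genes that fell after R837 and whose best summit lay in or within 500 bp of the promoter, in every library with a summit for Cdt1, Mcm3, Cdkn1b, Birc5 and Kif11 and in 2 of 4 libraries for Mcm6. Promoters whose 250 bases overlap an annotated gene, the gene itself included, were left out. This removed Pcna, E2f1, Mcm7 and the downstream start of Cdkn1a, which otherwise met the rule. Except for Mcm6, the promoters shown give the sequence at or next to the summits that the changes are measured on. The best summit of Mcm6 lay a median of 1104 bp after the start. These tallies of libraries use the lists as deposited. Each is the 250 bases before the annotated start, 5′ to 3′ on the gene's strand, from RefSeq on GRCm38.p6. Capitals mark matches, on either strand, to motifs common in cell cycle promoters: an E2F site (TTTGGCGC, TTTCCCGC, TTTCGCGC or GGCGGGAA), the CHR element (TTTGAA) and the CCAAT box (CCAAT).
Cdt1, chr8:122567765-122568014, plus strand, licensing factor: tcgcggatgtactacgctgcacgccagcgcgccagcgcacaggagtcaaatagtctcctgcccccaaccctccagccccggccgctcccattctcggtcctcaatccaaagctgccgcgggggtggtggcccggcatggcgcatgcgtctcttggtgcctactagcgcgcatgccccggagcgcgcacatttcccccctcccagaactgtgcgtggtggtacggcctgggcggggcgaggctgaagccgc
Mcm3, chr1:20820313-20820562, minus strand, helicase subunit: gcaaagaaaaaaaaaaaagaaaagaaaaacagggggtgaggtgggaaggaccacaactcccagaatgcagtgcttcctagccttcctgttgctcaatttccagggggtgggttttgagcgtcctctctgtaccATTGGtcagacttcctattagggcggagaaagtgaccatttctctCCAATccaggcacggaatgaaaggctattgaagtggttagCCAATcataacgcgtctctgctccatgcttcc
Mcm6, chr1:128359706-128359955, minus strand, helicase subunit: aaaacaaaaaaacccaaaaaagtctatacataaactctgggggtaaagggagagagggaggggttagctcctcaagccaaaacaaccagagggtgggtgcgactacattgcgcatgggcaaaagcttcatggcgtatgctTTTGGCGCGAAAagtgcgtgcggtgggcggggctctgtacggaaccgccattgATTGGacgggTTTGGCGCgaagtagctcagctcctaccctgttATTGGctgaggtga
Cdkn1b, chr6:134920151-134920400, plus strand, CDK inhibitor p27: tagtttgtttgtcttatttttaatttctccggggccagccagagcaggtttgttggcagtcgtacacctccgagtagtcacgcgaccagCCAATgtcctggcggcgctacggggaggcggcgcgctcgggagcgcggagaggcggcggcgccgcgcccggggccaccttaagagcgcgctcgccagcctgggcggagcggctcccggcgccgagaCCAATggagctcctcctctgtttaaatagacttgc
Birc5, chr11:117848987-117849236, plus strand, survivin: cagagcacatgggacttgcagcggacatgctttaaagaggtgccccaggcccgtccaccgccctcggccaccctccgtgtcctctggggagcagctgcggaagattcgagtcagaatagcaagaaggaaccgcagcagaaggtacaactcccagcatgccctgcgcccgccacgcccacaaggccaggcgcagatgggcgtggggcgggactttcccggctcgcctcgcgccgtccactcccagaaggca
Kif11, chr19:37376132-37376381, plus strand, spindle motor: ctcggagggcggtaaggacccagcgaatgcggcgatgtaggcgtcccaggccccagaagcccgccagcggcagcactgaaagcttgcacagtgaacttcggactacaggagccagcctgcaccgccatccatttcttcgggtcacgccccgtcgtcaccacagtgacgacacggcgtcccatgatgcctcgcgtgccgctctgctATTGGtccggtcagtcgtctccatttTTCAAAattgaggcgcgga

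Kif11 has a CHR element starting 19 bases before the start and a CCAAT box 45 bases before it. Mcm6 has 3 E2F matches, of which the pair at 110 and 106 bases before the start overlap in 1 run, and CCAAT boxes at 57 and 14 bases. Mcm3 has CCAAT boxes at 117, 72 and 32 bases before its start, and Cdkn1b at 161 and 35 bases. These letters were not found in the 250 bases shown for Cdt1 and Birc5, although Cdt1 is among the genes with an E2F match once the bases after the start are taken in. Over windows that also take in the 50 bases after the start, 25.0% of the 32 members with an entry held an E2F match, against 26.9% of 130 other cell cycle and replication genes and 5.2% of all 17492 genes. A CHR element lay in 34.4% of the members' windows, 34.6% of the other cell cycle genes' and 18.5% of all. For a CCAAT box the shares were 68.8%, 61.5% and 42.3%, and for both together 31.2%, 26.9% and 8.4%. A match is a description of letters and does not show that a factor binds there.

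Before treatment, most of the 40 genes carried a called summit. In the lists as deposited, 36 to 39 of them held a summit in each untreated library, and 5 to 33 did so in each treated library, whose lists differ in length. In the shortened lists of equal length the numbers were 26, 26, 18 and 24 in the untreated libraries. The 2 h libraries had 7, 7, 11 and 8, the 4 h libraries 12, 14, 14 and 12, and the 6 h libraries 14, 5, 13 and 18, in the order WT then KO, replicates 1 and 2. Every treated library but replicate 2 of KO at 6 h, which tied with replicate 1 of untreated KO at 18, lay below every untreated library. All protein-coding genes moved the same way: 29.4% to 30.6% of them held a summit in an untreated shortened list and 12.3% to 26.9% in a treated one, against 45% to 65% and 12.5% to 45% of the members. Member genes received 3.22 to 3.79 of every 1000 summits deposited for untreated cells and 0.95 to 3.08 of every 1000 for treated cells.

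**Figure D1:**
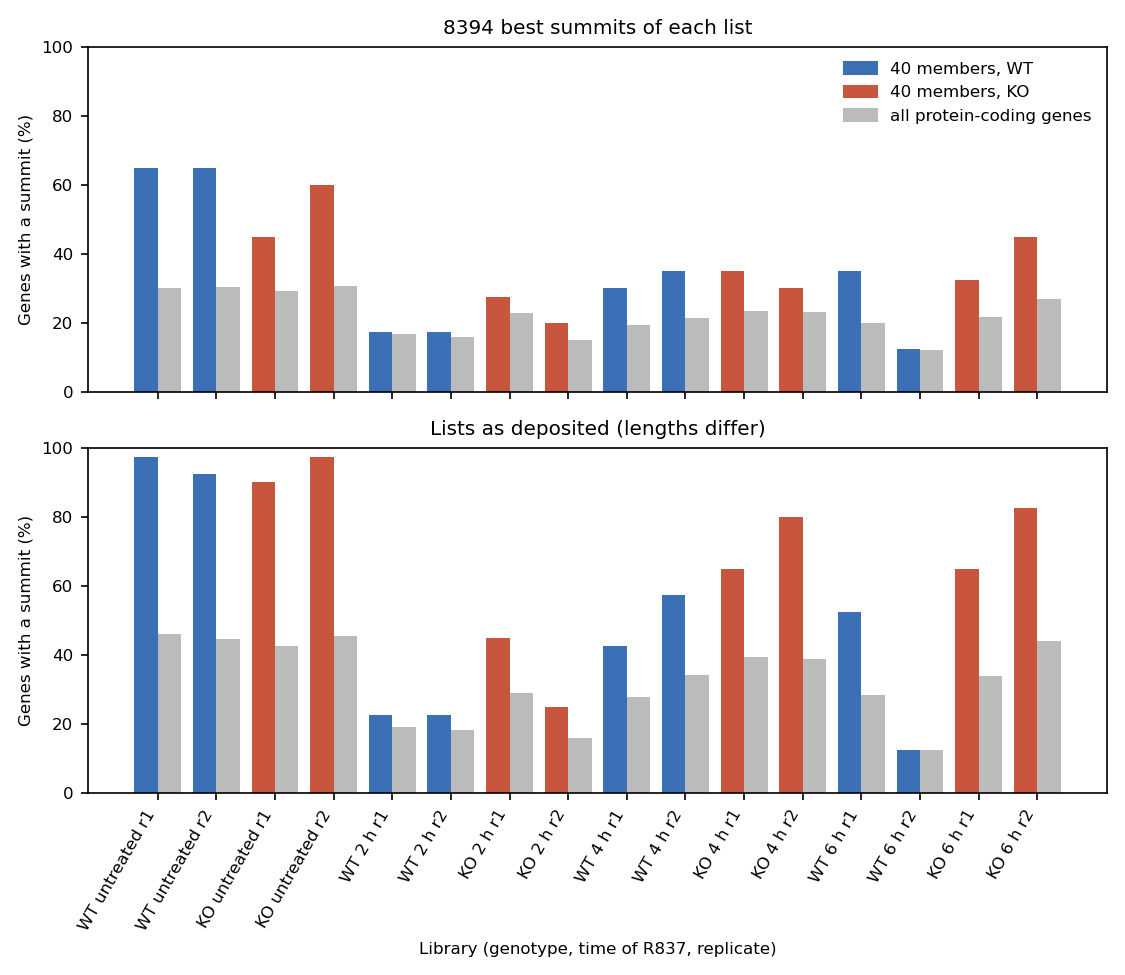
Share of genes (%) with at least 1 summit in each of the 16 libraries, in lists shortened to 8394 summits (top) and as deposited (bottom). Blue (WT) and red (KO) bars are the 40 cell cycle genes and grey bars all 21887 protein-coding genes; both kinds of bar are lower in treated than in untreated libraries in the shortened lists, except that the member bar of replicate 2 of KO at 6 h (45%) equals that of replicate 1 of untreated KO.

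The summits of these genes lay mostly at gene ends. Of the best summits in the lists as deposited, 84.1% in untreated and 83.4% in treated libraries lay within 1 kb of a gene end. Of those in genes with an annotated start, 85.5% and 74.7% lay within 500 bp of a start. Several of the genes share their best summit with a neighbour, since 1 kb around a gene can reach another. This was so for Pcna with Cds2 in 13 of 13 libraries, Aurka with Cstf1 in 11 of 11, and Mcm4 with Prkdc and Mcm7 with Ap4m1 in 8 of 8 each. It also held for Fzr1 with Mfsd12 and Rb1 with Lpar6, described further on.

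After R837, 14 of the 30 tested cell cycle genes were lower and none was higher. The 14 were Fzr1, Rb1, Cdt1, Birc5, Kif11, Pcna, Cdkn1b, Mcm7, Cdkn1a, E2f1, Aurkb, Mcm6, Ccnd1 and Mcm3. The background was large: 29.4% of all tested genes were lower and 5.77% higher in the same contrast of 12 treated with 4 untreated libraries. The median change was −0.45 over the tested members and −0.33 over all tested genes, and 17 members had an unadjusted p under 0.05 (limma). A member with summits only in untreated lists can only fall in this test, which applies to Ccnd1, Rb1, Mcm2, Mcm6, Tyms and Ccna2, so the count over tested members is no count over all 40. The treated scores of these genes are all 0 and add no spread to the fit, which lowers their SE and p. Aurkb and Mcm3 come near this, with a summit in 1 treated list each. Another 10 genes were not tested. Ccnd2, Rrm1, Ccnb1, Cdk1, Bub1b and Kif20b had no summit in any shortened list, and Ccne1, Ccne2, Rrm2 and Plk1 had one in a single untreated list each.

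**Figure D2:**
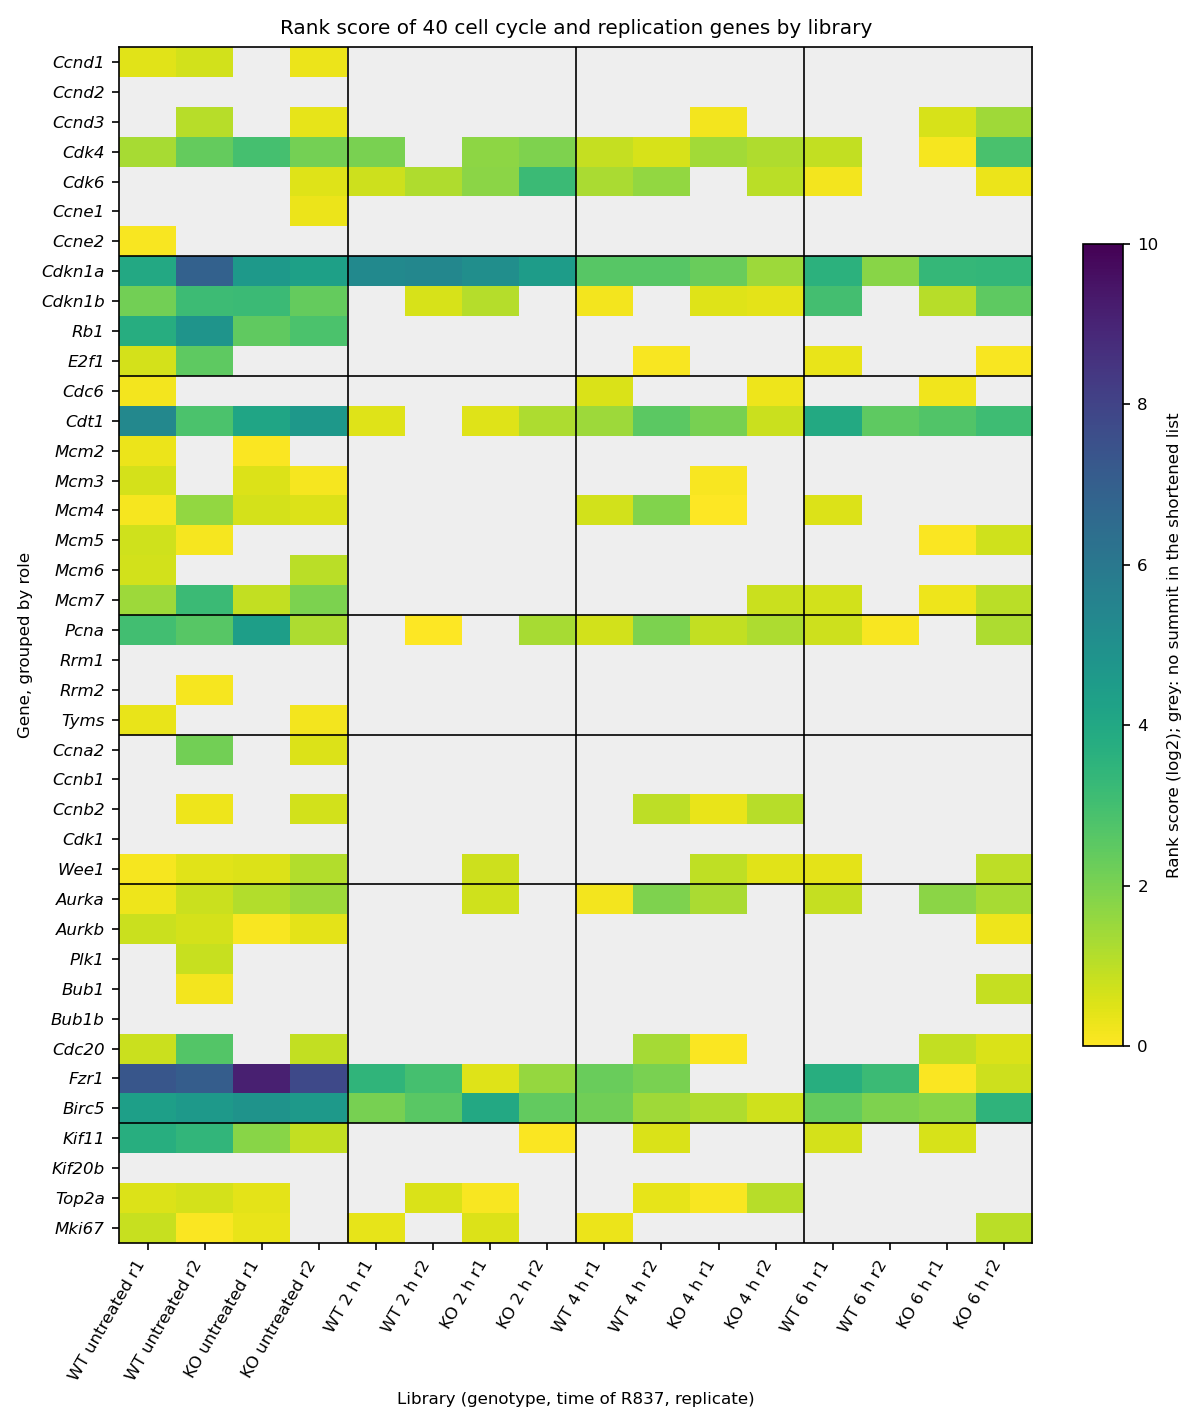
Rank score (log2 scale, colour) of the 40 genes (rows, grouped by role between black lines) in the 16 libraries (columns; black lines separate untreated, 2, 4 and 6 h). Grey marks a gene with no summit among the 8394 best; Fzr1, Birc5, Cdkn1a and Cdt1 are the darkest in the untreated columns, and the rows of Rb1 and Ccnd1 are grey in every treated column.

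Treated lists covered fewer genes in all, with 2693 to 5885 protein-coding genes against 6430 to 6689 in untreated lists. When each list was instead shortened to its 2693 best genes with 1 rank per gene, 5 of 13 tested members were lower (Fzr1, Birc5, Rb1, Cdt1 and Kif11), where the background was 12.0% of genes and the median of all genes was 0.04. With summits within 1 kb of an annotated start only, 10 of 24 were lower against a background of 28.7%. With the lists as deposited, 31 of 39 were lower against 49.1%, with a median of −0.84 over all genes.

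**Figure D3:**
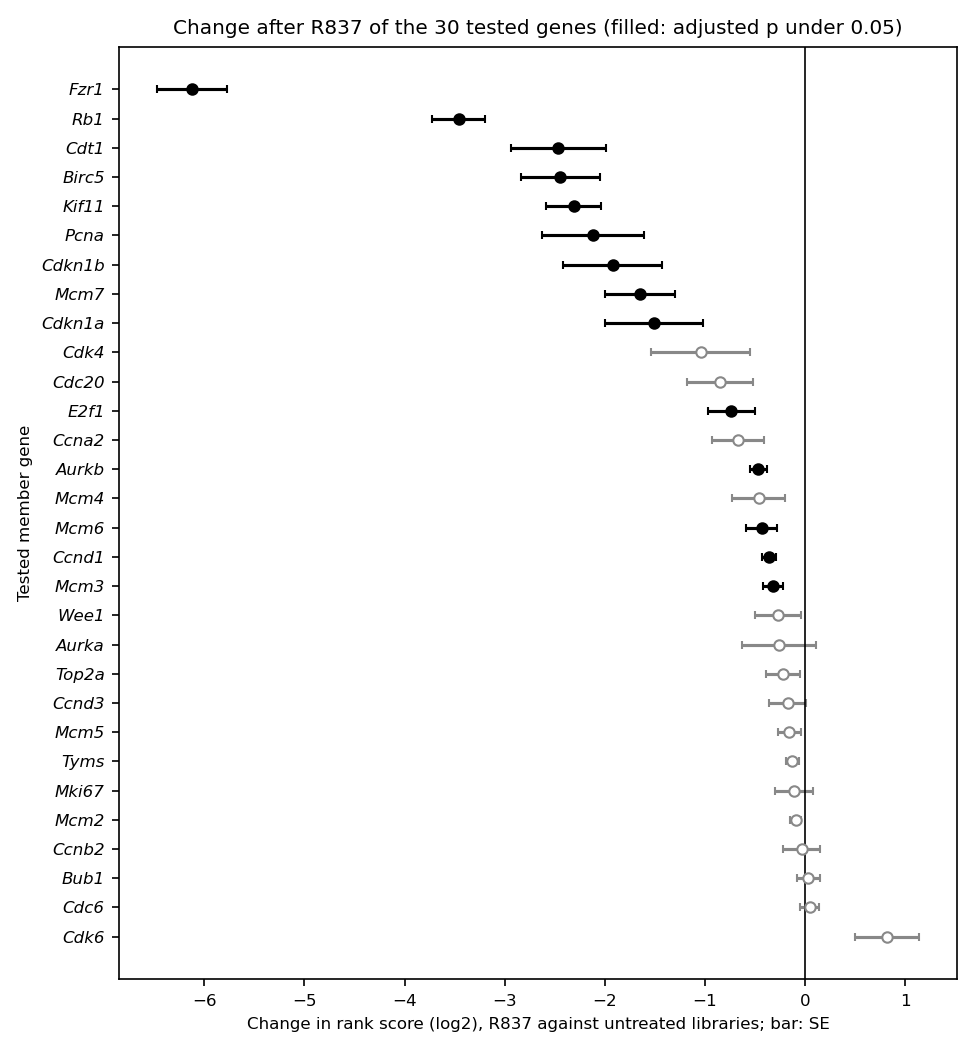
Change in rank score after R837 (log2, mean of treated minus mean of untreated groups) for the 30 tested genes, with bars for 1 SE; filled points had adjusted p under 0.05 (limma). The 14 filled points all lie below 0, from −6.12 for Fzr1 to −0.32 for Mcm3, and Cdk6 at 0.82 is the highest open point.

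The counts by role that follow stand beside the 29.4% of all tested genes that were lower after R837. Among the G1 cyclins and their kinases, 1 of 4 tested genes passed. Ccnd1, the growth factor-induced cyclin D1 (gene ID 12443, chromosome 7, 144929931 to 144939831 on GRCm38), stood at ranks 6083 and 5283 in untreated WT and 6802 in replicate 2 of untreated KO, and had no summit in replicate 1 or in any treated shortened list. It fell by 0.36 ± 0.07 on the log2 scale (SE, adjusted p = 0.00167). These ranks lie near the end of the shortened lists, so a fall to 0 is a small step in rank score. Cdk4, the partner of the D cyclins, had ranks of 3390 and 1627 in untreated WT, 1096 and 1953 in untreated KO, and 1134 to 7551 in 10 treated libraries, with none in the other two. The groups overlapped, and the change of −1.04 ± 0.50 did not pass (adjusted p = 0.118). Ccnd3 changed by −0.17 ± 0.18 (adjusted p = 0.485). Cdk6 went the other way and is described further on.

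All 4 genes for CDK inhibitors, RB and E2F were tested and fell, where 29.4% of all tested genes were lower. Rb1, described further on, had summits only in untreated shortened lists, so it could only fall. The calls of Cdkn1a, Cdkn1b and E2f1 did not hold in every setting. Cdkn1a, which encodes p21, the inhibitor induced by p53 (gene ID 12575, chromosome 17, 29090979 to 29100722), had a summit in all 16 shortened lists. It lay a median of 36 bp after the nearest annotated start, and in 12 libraries near the downstream of its 2 starts, inside the gene. Its ranks were 544 and 70 in untreated WT and 348 and 421 in untreated KO. In the order WT then KO, the 2 h libraries had ranks of 218, 201, 254 and 375, the 4 h libraries 1402, 1389, 1726 and 3016, and the 6 h libraries 705, 2438, 834 and 810. The 2 h libraries thus lay within the untreated range and the 4 and 6 h libraries below it. Over all times the change was −1.51 ± 0.49 (adjusted p = 0.0295). The 2 h change was 0.10 ± 0.60 (adjusted p = 0.939). The 4 h change was −2.71 ± 0.60 (adjusted p = 0.00515) and the 6 h change −1.93 ± 0.60 (adjusted p = 0.028). The untreated library with rank 70, replicate 2 of WT, weighed on this value: without it the change over all times was −0.77 (adjusted p = 0.188). The call was also lost without replicate 1 (−1.44) or 2 (−1.58) of untreated KO or replicate 2 of KO at 4 h (−1.44). The direction turned with summits at gene ends only (0.51, adjusted p = 0.268) and with the number of summits (0.47, adjusted p = 0.0506), and the call was lost with 1 rank per gene and with no filter. The setting with gene ends only leaves out the summits near the downstream start.

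Cdkn1b encodes p27, the inhibitor that holds resting cells in G1 (chromosome 6, 134920401 to 134925525). It stood at 1917 and 946 in untreated WT and 931 and 1640 in untreated KO. After R837 it stood at 5502 and 3913 in 1 WT and 1 KO library of 2 h, at 7414, 5912 and 6272 at 4 h, at 1051, 3968 and 1495 at 6 h, and had no summit in the other four. Most treated libraries lay below the untreated ones, but the 6 h libraries at 1051 and 1495 fell inside their range. The change was −1.92 ± 0.49 (adjusted p = 0.00912). The call was lost without replicate 2 of untreated WT or replicate 1 of untreated KO, with adjusted p up to 0.0571.

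E2f1, an activating E2F factor (chromosome 2, 154559400 to 154569892), had summits at ranks 5433 and 1486 in untreated WT and none in untreated KO. It had ranks of 7780 in replicate 2 of WT at 4 h, 6760 in replicate 1 of WT at 6 h and 7861 in replicate 2 of KO at 6 h. The groups overlapped at 0. The change of −0.74 ± 0.24 (adjusted p = 0.0274) therefore rests on WT cells, and the call was lost without either replicate of untreated KO (adjusted p up to 0.0893). The change was −0.27 without replicate 2 and −1.21 without replicate 1 of untreated WT.

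Of the replication licensing genes, 4 of 8 fell and the other four did not pass. Cdt1, which loads the MCM helicase together with Cdc6 (gene ID 67177, chromosome 8, 122568015 to 122573130), stood at 208 and 1193 in untreated WT and 488 and 327 in untreated KO. At 2 h it stood at 6019 in 1 WT library, was missing in the other, and stood at 6026 and 3599 in KO. At 4 h its ranks were 3057 and 1474 in WT and 2041 and 4812 in KO, and at 6 h 554 and 1493 in WT and 1274 and 977 in KO. All 2 and 4 h libraries lay below the untreated ones, and of the 6 h libraries, those at 554 and 977 lay inside the untreated range. After 2 h Cdt1 had changed by −3.69 ± 0.58 (adjusted p = 5.36e-04) and after 4 h by −2.53 ± 0.58 (adjusted p = 0.00637). The 6 h change of −1.18 ± 0.58 did not pass (adjusted p = 0.146). The change over all times was −2.47 ± 0.47 (adjusted p = 0.00145). Its best summit lay a median of 284 bp before the start, in the promoter printed above or close to it.

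The MCM genes encode the 6 subunits of the replicative helicase, and their summits were of low rank. Mcm7 (chromosome 5, 138164583 to 138172111) stood at 3071, 916, 4418 and 2165 in the 4 untreated libraries, at 4820 in replicate 2 of KO at 4 h, and at 5201, 7081 and 4052 at 6 h, with none in the other eight libraries. Its change was −1.65 ± 0.35 (adjusted p = 0.00267), at a summit shared with Ap4m1, a subunit of a vesicle adaptor. Mcm6 stood at 5268 and 4051 in replicate 1 of untreated WT and replicate 2 of untreated KO and nowhere else. It held 3 to 5 summits in each untreated list as deposited and none in any of the 12 treated lists, whose lengths differ. Its change of −0.43 ± 0.15 passed narrowly (adjusted p = 0.0451), and the call was lost without any 1 of the 12 treated libraries (adjusted p up to 0.0701). Without replicate 1 of untreated KO it was −0.69 (adjusted p = 0.00115). Mcm3 stood at 5442 in replicate 1 of untreated WT, 5821 and 7543 in untreated KO and 7833 in replicate 1 of KO at 4 h, a change of −0.32 ± 0.10 (adjusted p = 0.0265). That call was lost without replicate 1 of untreated WT (−0.16) or KO. Mcm4 (−0.46 ± 0.27), Mcm5 (−0.16 ± 0.12) and Mcm2 (−0.10 ± 0.06) did not pass, nor did the loader Cdc6 (0.04 ± 0.09), seen in 4 libraries at ranks from 5720 to 7482.

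Of the genes for DNA synthesis and nucleotide supply, Pcna fell and Tyms did not pass. Pcna, the sliding clamp of the replicative polymerases (chromosome 2, 132249286 to 132253180), stood at 1043 and 1374 in untreated WT and 402 and 3559 in untreated KO. The 2 h libraries with a summit had ranks of 8340 (WT) and 3347 (KO), the 4 h libraries 5259 and 2142 (WT) and 4401 and 3596 (KO), and the 6 h libraries 4885 and 7786 (WT) and 3546 (KO). It was missing from 3 treated libraries. The groups overlapped only through replicate 2 of untreated KO. The change was −2.12 ± 0.51 (adjusted p = 0.00608), at a summit that also lies within 1 kb of Cds2, an enzyme of phospholipid synthesis. Without replicate 1 of untreated KO it was −1.33 (adjusted p = 0.039), and the call was lost with 1 rank per gene (−1.13, adjusted p = 0.0505) and with the number of summits (−0.40, adjusted p = 0.259). Tyms, thymidylate synthase, had ranks of 6750 and 7373 in 2 untreated libraries and a change of −0.13 ± 0.06 (adjusted p = 0.128). Rrm1 and Rrm2, the subunits of ribonucleotide reductase, were too low to test, yet both held 1 summit in every untreated list as deposited. Rrm1 did so in 4 and Rrm2 in 1 of the 12 treated lists. Lists as deposited differ in length. They covered 42.7% to 46.2% of all protein-coding genes in untreated libraries and 12.3% to 44.0% in treated ones.

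None of the 3 tested genes among the S, G2 and M cyclins and Cdk1 control passed. Ccna2, the cyclin of S phase and G2, stood at 1898 and 5828 in replicate 2 of untreated WT and of untreated KO and had no summit in any treated shortened list, a change of −0.67 ± 0.26 (adjusted p = 0.0634). Ccnb2, a mitotic cyclin, stood at 7126 and 5168 in 2 untreated libraries and at 4238, 6682 and 3971 at 4 h, a change of −0.03 ± 0.19 (adjusted p = 0.898). Wee1, the kinase that holds Cdk1 inactive, was seen in 4 untreated and 5 treated libraries and changed by −0.27 ± 0.23 (adjusted p = 0.371). Ccnb1 and Cdk1 had no summit in any shortened list, although each held one in 3 of 4 untreated lists as deposited, against 1 and 2 of 12 treated lists. Treated lists as deposited mostly covered fewer genes of any kind, as given above.

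Of the mitotic kinases, checkpoint genes and regulators of the anaphase-promoting complex, 3 of 6 tested genes fell. Birc5, which encodes survivin, a subunit of the chromosomal passenger complex (gene ID 11799, chromosome 11, 117849237 to 117855743), had a summit in all 16 shortened lists, a median of 242 bp before its start. It stood at 410 and 336 in untreated WT and 291 and 351 in untreated KO. At 2 h the ranks were 2044 and 1438 in WT and 543 and 1589 in KO, at 4 h 1878 and 3161 in WT and 3679 and 5103 in KO, and at 6 h 1646 and 2189 in WT and 2476 and 749 in KO. No treated library reached the untreated range. The change was −2.44 ± 0.39 (adjusted p = 4.01e-04), lowest at 4 h with −3.24 ± 0.48 (adjusted p = 3.79e-04). The number of summits at Birc5 did not move, with 1 in each untreated list and 1 to 2 in each treated list as deposited, so it is the place in the list that differed.

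Aurkb, the kinase of the same complex (chromosome 11, 69045624 to 69051664), stood at 4826, 5320, 7855 and 6346 in the untreated libraries and at 6953 in replicate 2 of KO at 6 h, and had no summit in the other eleven treated lists. Its change was −0.47 ± 0.08 (adjusted p = 9.7e-04). Aurka, the spindle pole kinase, changed by −0.26 ± 0.37 (adjusted p = 0.612), at a summit shared with Cstf1. Cdc20, the mitotic activator of the anaphase-promoting complex, stood at 4881, 1304 and 4479 in untreated lists and at 3291 to 7974 in 4 treated lists, a change of −0.85 ± 0.33 that did not pass (adjusted p = 0.0629). Bub1, a checkpoint kinase, changed by 0.03 ± 0.12 (adjusted p = 0.837).

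Among the mitotic motors, chromosome structure genes and the proliferation marker Ki-67, 1 of 3 tested genes fell. Kif11, the motor that pushes spindle poles apart (gene ID 16551, chromosome 19, 37376382 to 37421863), stood at 635 and 786 in untreated WT and 2441 and 4393 in untreated KO. In treated cells it stood at 8008 in replicate 2 of KO at 2 h, 5719 in replicate 2 of WT at 4 h, and 5371 and 5547 in replicate 1 of WT and KO at 6 h, and had no summit in the other eight. No treated library overlapped the untreated ones, and the change was −2.31 ± 0.27 (adjusted p = 4.49e-05). Top2a, the topoisomerase that untangles chromosomes, changed by −0.22 ± 0.17 (adjusted p = 0.343), and Mki67, which encodes Ki-67, by −0.11 ± 0.19 (adjusted p = 0.68). Of the 30 tested members, Fzr1, Rb1, Birc5 and Kif11 are the 4 whose treated libraries all lay below all untreated ones. The share of all tested genes without such overlap was not computed. The 29.4% of all genes lower in this contrast counts adjusted p, not overlap, and is no background for these 4.

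By time, 10 of the 30 tested members were lower at 2 h, 10 at 4 h and 9 at 6 h. The shares of all tested genes that were lower are 24.1% at 2 h, 19.7% at 4 h and 23.2% at 6 h, and those that were higher are 4.84%, 5.71% and 6.32%. Fzr1, Rb1, Birc5, Kif11, Mcm7, Aurkb and Ccnd1 were lower at each time. Cdt1 and Cdkn1b were lower at 2 and 4 h, Pcna at 2 and 6 h, and Cdkn1a at 4 and 6 h; differences between times were not tested. The 3 comparisons share the same 4 untreated libraries. Among members, 1 gene was higher at any time, Cdk6 at 2 h. Left out in turn, replicate 2 of KO at 6 h moved none of these counts: 14 members were lower over all times without it, with Cdk4 in the place of Mcm6, and at 6 h Cdk4 took the place of Cdkn1a.

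Fzr1 showed the largest change of the 40 genes, −6.12 ± 0.35 (adjusted p = 8.29e-08), and its position needs a remark. The gene (gene ID 56371, chromosome 10, 81366879 to 81378370, minus strand) encodes CDH1, the activator that keeps the anaphase-promoting complex at work in G1. Its best summit stood at 53 and 63 in untreated WT and 15 and 38 in untreated KO. It stood at 774 and 1101 in WT and 6033 and 2831 in KO at 2 h, at 1731 and 2101 in WT at 4 h and in neither KO library, and at 640 and 930 in WT and 8012 and 4933 in KO at 6 h. All treated libraries lay below all untreated ones.

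In 13 of the 14 libraries with a summit, that best summit lay at or just beyond the 3′ end of Fzr1, a median of 11952 bp from the start, and within 1 kb of Mfsd12, a lysosomal membrane transporter gene at 81357491 to 81366225. Among these libraries the best summit was also shared with the gene 4930404N11Rik. Polymerase there cannot be assigned to one of these genes. The best summit outside the Mfsd12 region stood at 3522 to 10537 in untreated lists as deposited and at 5670 to 15657 in the 10 treated lists that had one. With summits that fall in more than 1 gene left out, the change was −0.61 (adjusted p = 0.0412), and with summits at annotated starts only it was −0.66 (adjusted p = 0.0209). With no bases added around the gene it was −1.95 and did not pass (adjusted p = 0.208).

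Rb1, which encodes the retinoblastoma protein (gene ID 19645, chromosome 14, 73192858 to 73325951), stood at 614 and 300 in untreated WT and 1554 and 1180 in untreated KO and had no summit in any of the 12 treated shortened lists. The change was −3.46 ± 0.27 (adjusted p = 1.27e-06). The standard deviation of its score was 1.06 in untreated libraries and 0.0 in treated ones. All treated scores lie at the floor of 0, which lowers this SE and p. In all 4 untreated libraries the best summit lay within Lpar6, a receptor gene for lysophosphatidic acid that sits inside Rb1 at 73237891 to 73240358. More than 1 kb from Lpar6, Rb1 still held 5, 7, 5 and 3 summits in the untreated lists as deposited, with best ranks of 1379, 4155, 3573 and 13062. Those at 1379, 4155 and 3573 lay just past that 1 kb, at 48570, 48573 and 48558 bp from the lower-coordinate end of Rb1. Summits just past its higher-coordinate end, at 133350 to 133520 bp, had ranks of 4361, 6320, 9764 and 21325. Among the treated lists as deposited only 3 held any summit in Rb1, 1 each in replicate 2 of KO at 4 h and both KO replicates at 6 h, at ranks of 20552 to 22973. With shared summits left out, which keeps the summits just past 1 kb from Lpar6, the change was −1.21 (adjusted p = 0.00326). With summits near gene ends only it was −0.34 (adjusted p = 0.00749).

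**Figure D4:**
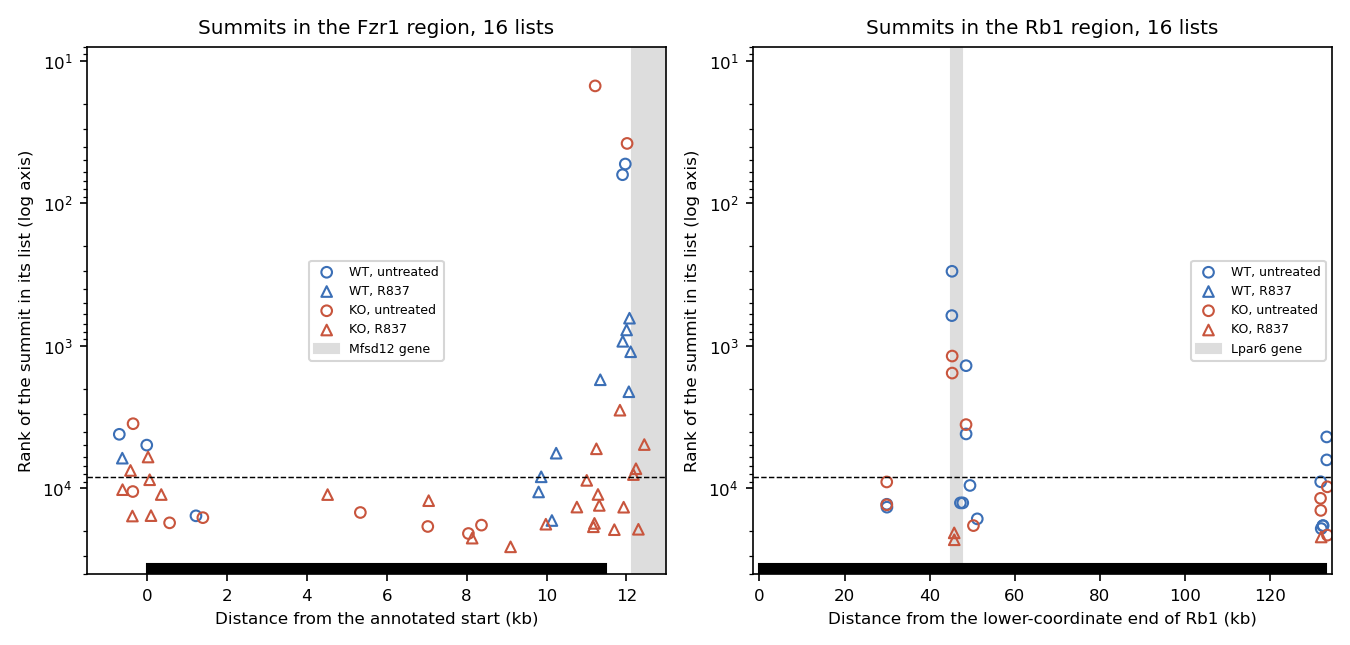
Every summit in the Fzr1 and Rb1 regions (gene and 1 kb on either side) in the 16 lists as deposited, by distance (kb, horizontal) and by rank in its list (vertical, log axis, best at the top). Circles are untreated and triangles R837 libraries, blue WT and red KO; the black bar is the gene, the grey band the neighbouring gene and the dashed line rank 8394. The top summits of Fzr1 lie near or beyond its end, and those of Rb1 inside Lpar6, where the treated libraries have at best ranks of 20552 and 22973.

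Cdk6, the other kinase of the D cyclins (gene ID 12571, chromosome 5), moved against the rest, and it is described in full because of the values seen. It was missing from 3 of 4 untreated shortened lists and stood at 6000 in replicate 2 of untreated KO. At 2 h it stood at 4996 and 3643 in WT and 2485 and 919 in KO, all above the untreated libraries. At 4 h it stood at 3495 and 2754 in WT and 4042 in replicate 2 of KO, and at 6 h at 7495 in replicate 1 of WT and 6799 in replicate 2 of KO. The rise at 2 h was 1.60 ± 0.39 (adjusted p = 0.00829), while the changes after 4 h (0.86 ± 0.39, adjusted p = 0.123), after 6 h (0.00 ± 0.39, adjusted p = 1) and over all times (0.82 ± 0.32, adjusted p = 0.0603) did not pass. The 2 h call was lost with 1 rank per gene (0.76, adjusted p = 0.0871), lists as deposited (1.21, adjusted p = 0.0538), summits at gene ends only (0.51, adjusted p = 0.107) and annotated starts only (1.17, adjusted p = 0.0635).

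The summits of Cdk6 lay both near the annotated start and across the rest of the gene, which runs from 3341004 to 3531008. The untreated lists as deposited held 5, 2, 2 and 7 summits in it, in lists of 20607 to 24720. The 2 h lists held 9, 17, 15 and 15, in lists of only 9402 to 13825. Of the 2 h summits, 9, 14, 12 and 12 lay more than 1 kb from an annotated start, and the farthest lay 185798 to 187928 bp from it. Some of these lay before the start, such as those at −1207 bp in replicate 1 of WT and −1577 bp in replicate 1 of KO. The best 2 h summit, at rank 919 in replicate 2 of KO, lay at −836 bp, near the start. At 4 h the lists held 7 and 4 summits in WT and 16 and 11 in KO, and at 6 h 3, 0, 5 and 6. Scored by the number of summits in the shortened lists, on the log2(number + 1) scale, the rise at 2 h was 2.94 (limma, adjusted p = 0.00248). In that fit 575 of all 8475 tested genes were higher at 2 h and 1870 were lower.

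**Figure D5:**
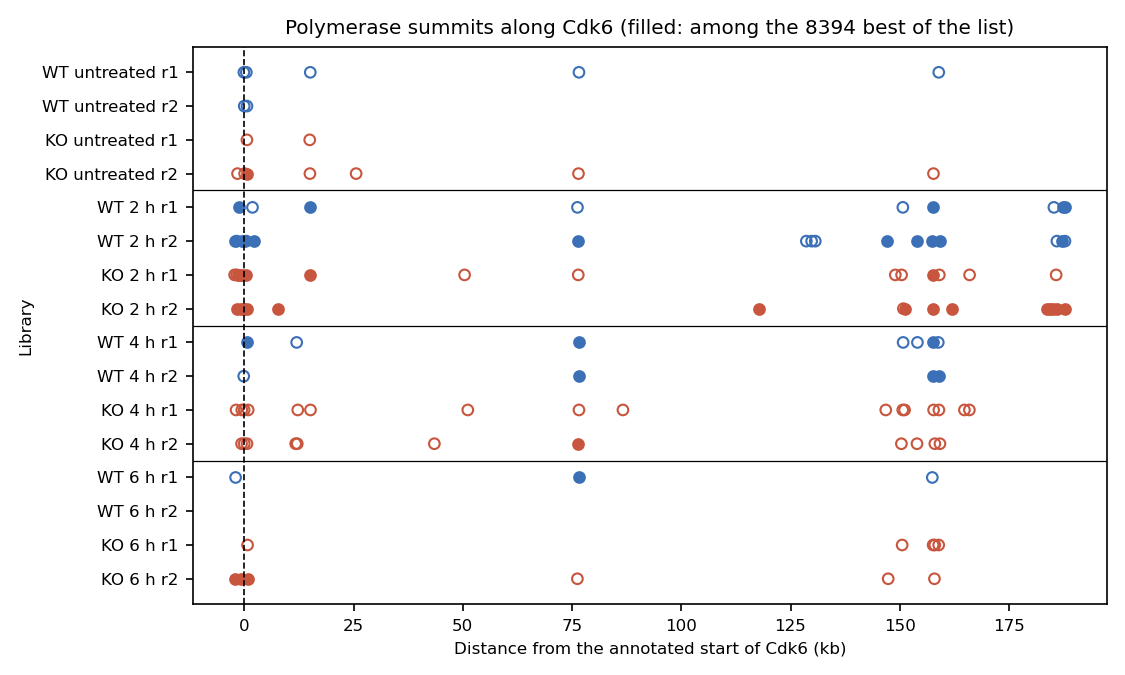
Position of each summit along Cdk6 (kb from the annotated start, horizontal) in the 16 lists as deposited (rows, lines between times; blue WT, red KO). Filled points are among the 8394 best of their list; the 4 rows at 2 h hold 9 to 17 points reaching to 185.798 kb or beyond, and the untreated rows 2 to 7.

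KO and WT cells differed past the threshold at 2 of the 40 genes, Kif11 and Fzr1. Among all tested genes, the shares called between KO and WT in either direction were 1.37% in untreated cells, 0.0708% at 2 h, 0.401% at 4 h, 1.32% at 6 h and 0.743% over the treated times. In untreated cells Kif11 was lower in KO, at the ranks given above, (−2.21 ± 0.48, adjusted p = 0.04). The call was lost without replicate 2 of untreated KO (−1.79, adjusted p = 0.114). It was also lost without any 1 of the 2 and 4 h libraries or either WT library of 6 h, 10 fits in which the difference itself stayed at −2.21 and adjusted p ran up to 0.0765. It did not pass with the replicate block (adjusted p = 0.0545), a summit in at least 4 lists (0.0781), no filter (0.101), lists as deposited (0.307), only the compared groups fitted (0.717) or the number of summits (1). Among the rest, Rb1 (−1.66 ± 0.46, adjusted p = 0.123), E2f1 (−1.56 ± 0.41, adjusted p = 0.0912) and Ccnd1 (−0.41 ± 0.12, adjusted p = 0.146) were nearest to the threshold in untreated cells.

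Fzr1 was lower in KO than in WT over the treated times (−2.44 ± 0.35, adjusted p = 0.00953) and among the 6 h libraries alone (−3.03 ± 0.61, adjusted p = 0.0284). It did not pass in the 2 h libraries (−2.16 ± 0.61, adjusted p = 0.443) or the 4 h libraries (−2.14 ± 0.61, adjusted p = 0.275). All 6 treated KO libraries lay below all 6 treated WT libraries. In untreated cells the difference was 1.28 ± 0.61 (adjusted p = 0.489). Without replicate 2 of KO at 6 h, the difference over the treated times was −2.56 (adjusted p = 0.0101). This difference lay at the summit shared with Mfsd12: with shared summits left out it was −0.07 (adjusted p = 1) and with summits at annotated starts only 0.03 (adjusted p = 1). No member was called between KO and WT at 2 h or at 4 h by limma, and 2 members had an unadjusted p under 0.05 at each of these times.

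The response to R837 itself, the treated minus untreated change in KO minus that in WT, was called for 0.932% of all tested genes and for 1 member, Fzr1 (−3.72 ± 0.70, adjusted p = 0.0341). The call held in 2 of 13 other settings, and with the shared summits left out the difference was 0.19 (adjusted p = 0.908). It was also lost without replicate 1 of untreated KO (−3.05, adjusted p = 0.0574), any 1 of the 6 treated WT libraries, replicate 1 of KO at 2 h or either KO library of 4 h (adjusted p up to 0.0842). For Birc5 the difference in response was −0.04 ± 0.78 and for Cdt1 −0.40 ± 0.95, and neither passed (adjusted p = 0.992 and 0.916). For Cdkn1a it was 0.77 ± 0.98 (adjusted p = 0.827). Errors of this size leave differences of more than 1 log2 step in either direction possible for these genes.

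Other genes of the same pathways, taken from a list of 159, stood close to the background. Of the 104 that could be tested, 31 (29.8%) were lower after R837 and 1 (0.962%) was higher, with a median of −0.44. The falls comprised 12 of 34 tested mitosis genes, 9 of 31 replication genes, 5 of 23 regulators of G1 and the CDKs, 3 of 6 checkpoint and repair genes, and 2 of 10 genes of the E2F, RB and DREAM group. The largest were in Anapc5 (−2.54 ± 0.44) and Anapc11 (−1.97 ± 0.44), subunits of the anaphase-promoting complex, Lin9 (−1.84 ± 0.33) of the DREAM and MuvB complexes, Ccng2 (−1.83 ± 0.30), an atypical cyclin, and Cdca3 (−1.83 ± 0.39), a trigger of mitotic entry. The 1 gene that rose was Gadd45b, a stress-induced gene that NF-kB is known to drive (1.73 ± 0.47, adjusted p = 0.0115).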

How the data were processed

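Chromatin bound by RNA polymerase II was collected from mouse bone marrow-derived macrophages for 16 libraries, 2 for each of 8 groups of genotype and time, and sequenced as single-end reads, per the labels' protocols. GSNAP, MACS2 and the GRCm38 build are named per the submitters' processing notes. The sources used here do not give versions, the call threshold, the control or a depth scaling. The authors deposited 1 list of 1 bp summits per library, replicates not pooled, and its score is a −log10 value of p or q, without a statement of which. Scores served to order the summits of each list and for nothing else. An input sample was not used here. No column of an unmapped sample was used.

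The 40 members, the 159 other pathway genes, the marker lists and the tests were chosen with earlier results of these data known. Gene spans came from the RefSeq gene table and promoter sequences from the RefSeq promoter table (both GRCm38.p6); the latter held 32 of the 40 members. Each list was shortened to 8394 summits, and the best summit within 1 kb of each of 21887 protein-coding genes was scored by rank. Rank scores of the 8475 genes with a summit in at least 2 lists entered a limma fit (version 3.58.1, R 4.3.3) with 1 mean per group and a variance trend (Benjamini-Hochberg adjustment over all genes tested, threshold 0.05). All 16 libraries entered 1 fit because groups of 2 give little spread of their own. Values were given in every library for members called in a contrast of R837 or genotype and for those with a summit in all 16 shortened lists. Alternatives changed the list length (4000 summits, or as deposited), ranked genes instead of summits, changed the gene extension (none or 3 kb), used gene ends or annotated starts only (the latter added after the data were seen), left out shared summits, counted summits as log2(number + 1), changed the filter (none, or at least 4 lists), the variance trend or the fitted groups, added a replicate block, or left out each library. The fit was run on simulated lists before use, in which every library ranked the same number of genes. That simulation did not test the smaller gene coverage of treated lists.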

Additional observations from a re-analysis of the deposited data

Results flagged for a closer look

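The response to R837 differed between the genotypes at Fzr1 in a test of the difference itself, a call that most other settings did not keep. The treated minus untreated change in KO minus that in WT was −3.72 (limma, SE 0.70, adjusted p = 0.0341), where 0.932% of all tested genes were called in the same contrast. The best summits lay within 1 kb of Mfsd12 in 13 of the 14 libraries that had one. With shared summits left out the difference was 0.19 (adjusted p = 0.908), and with summits at annotated starts only 0.29 (adjusted p = 0.837). The direction was the same in all 16 fits with 1 library left out (−4.39 to −3.05), and adjusted p ran from 0.00993 to 0.0842. Of 13 other settings, 2 kept the call (lists of 4000 summits and summits at gene ends only). In 9 it fell short of the threshold in the same direction: 1 rank per gene, lists as deposited, no gene extension, 3 kb, the number of summits, no filter, at least 4 lists, the replicate block and no variance trend. It was also lost in 10 of the 16 fits with 1 library left out.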

How the results depend on the processing

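The files hold no read counts, so depth limits every comparison to ranks, and a gene near the end of a shortened list can lose its summit by a small shift. Of 502 comparisons of a named gene's value with an alternative, 405 kept direction and side of the threshold, 92 fell short of it and 5 turned. Cdkn1a changed by 0.51 with summits at gene ends only and by 0.47 with the number of summits. Fzr1 in KO against WT over treated times was 0.03 with annotated starts only, and its difference in response was 0.19 with shared summits left out and 0.29 with annotated starts only. The cause of these changes was not tested, but both Fzr1 settings drop the summit shared with Mfsd12 by construction. The setting with gene ends only likewise drops summits near the downstream start of Cdkn1a, where 12 of 16 libraries had their best summit.

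Counts of members lower after R837 (14 over all times, 10 at 2 h, 10 at 4 h, 9 at 6 h) moved as follows. With 1 rank per gene, which tests fewer genes, they were 5, 5, 6 and 4. Of all 5226 genes tested there, 627, 499, 482 and 609 were lower. With lists as deposited the member counts were 31, 35, 19 and 19, beside 5356, 6577, 2883 and 3548 of all 10919 genes tested. With no gene extension the counts over all times and at 2 h were 8 and 6, beside 1838 and 1434 of 7221 genes. With the number of summits the counts over all times, at 4 h and at 6 h were 7, 5 and 5. Of all 8475 genes, 1834, 1165 and 1656 were lower in these fits. With annotated starts only, 6 members were lower at 2 h and 6 at 4 h, beside 1392 and 1186 of 6267 genes. Over all times 9 members were lower with lists of 4000 summits, beside 1321 of 5748 genes. With no filter 8 members and 1781 of 21887 genes were lower, but limma warned there of too many variances at 0, so that fit is unreliable. Leaving out 1 library gave 10 to 15 over all times, 8 to 15 at 2 h, 9 to 15 at 4 h and 6 to 12 at 6 h.

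Members higher over all times numbered 1 (Cdk6) in place of 0 with the number of summits, with the replicate block and with no variance trend, and 0 to 1 with 1 library left out. At single times the count of 1 became 0 with 1 rank per gene, with lists as deposited and with annotated starts only, and was 1 to 2 with 1 library left out. With lists as deposited, 833 of 10919 genes were higher and 7 lower in KO than in WT at 6 h. Members called between KO and WT (2) numbered 4 with lists as deposited, 0 with no gene extension, and 1 with shared summits left out, the number of summits, no filter, a summit in at least 4 lists, the replicate block, annotated starts only or the compared groups only. The count also changed with 1 library left out. Such a fit leaves 1 library in a group, and the number called over all genes changes with it, so its count is no result about the members. For the response (1) the count was 2 with lists of 4000 summits. It was 0 with lists as deposited, no gene extension, 3 kb, no filter or at least 4 lists. It was also 0 with shared summits left out, the replicate block, no variance trend or annotated starts only. With 1 library left out the response count changed too, under the same limit.

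Other pathway genes lower (31) numbered 4 with 1 rank per gene, 19 with lists of 4000 summits, 90 as deposited, 11 with no gene extension, 16 with shared summits left out and 20 with the number of summits, and 26 to 33 with 1 library left out. Those higher (1) numbered 0 as deposited, with no gene extension and with annotated starts only, 2 with 3 kb and with the number of summits, and 0 to 2 with 1 library left out. Same-numbered replicates did not deviate together in rank score (correlations of −0.11 to 0.179 over 28 pairs of groups). A pairing with little effect on rank scores would not show in this check. With the replicate block 13 members were lower over all times, beside 2446 of all 8475 genes.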
